A study of Mus musculus with 6 samples.

Results

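Predicted snoRNA genes are genes that the mouse annotation classes as small nucleolar RNA (snoRNA) under a serial "Gm" symbol, without a snoRNA family name. The 79 described here, called the members below, are all such genes of GENCODE M21 (GRCm38) with at least 3 counts summed over the 6 samples, out of 1342 predicted snoRNA genes and 47729 genes in the files. They were chosen by the counts themselves, and the presence of these genes in the data is not a finding. Of the remaining predicted snoRNA genes, 1231 had no count, 25 had 1 and 7 had 2. Just inside the threshold lay Gm22519, Gm22571, Gm23346, Gm24616 and Gm25776 with 3 counts each. Just outside it were Gm22506, Gm22620, Gm22807, Gm24123, Gm24945, Gm25133 and Gm26132 with 2 counts each.

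The RNA came from extracellular vesicles (EVs) that WEHI-231 cells, a mouse B cell lymphoma line, released during 1 h of stimulation. The isotype samples received an isotype control antibody and the anti-CD24 samples the rat antibody M1/69 against CD24, each at 10 µg/mL and each pre-incubated with 5 µg/mL of secondary antibody. EVs were captured with the Vn96 peptide, and each condition had 3 biological replicates of this single cell line. Libraries were made without RNA fragmentation or rRNA depletion and read on an IonTorrent PGM, with barcode 1 for every isotype library and barcode 2 for every anti-CD24 library, so condition and barcode cannot be told apart.

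Box C/D snoRNAs guide 2′-O-methylation of rRNA and snRNA together with fibrillarin, and box H/ACA snoRNAs guide pseudouridylation together with dyskerin. In mammals most of them are cut from introns of host genes, often genes for ribosomal proteins or translation factors, and they reside in the nucleolus. A box C/D RNA carries a C box near its 5′ end and a D box near its 3′ end, and a box H/ACA RNA carries the ACA triplet close to its 3′ end.

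The letters of the members show both kinds. TGATG within the first 20 bases together with CTGA within the last 20 bases was counted as a C/D pair, and ACA starting 4 to 6 bases from the 3′ end as an ACA tail, on the transcript strand only and with the C/D pair taking precedence. By this rule 31 of the 79 members (39.2%) had a C/D pair and 43 (54.4%) an ACA tail, while 2 had a D box alone among the C/D boxes and 3 had neither. The predicted snoRNA genes below the threshold, 1263 in number, held a C/D pair in 18.1% and an ACA tail in 45.1%, and 28.1% had neither. Among the named genes the pair was found in 86.7% of 98 Snord genes and the tail in 92.9% of 42 Snora genes, which shows how often the rule finds the boxes where the class is known. A match is a description of these letters and not evidence that the RNA is functional.

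The 3 members with the most counts, Gm25835, Gm22980 and Gm24494, all carried a C/D pair. Gm25835 and Gm24494 are shown for that reason, with the TGATG and CTGA letters in capitals. Gm25835 (chr11:69668852-69668995, minus strand) lies in an intron of Eif4a1, an RNA helicase of translation initiation. Gm24494 (chr3:153911610-153911690, minus strand) lies in an intron of Rabggtb, a subunit of Rab geranylgeranyl transferase. The transcript sequences are those of GENCODE M21.
Gm25835: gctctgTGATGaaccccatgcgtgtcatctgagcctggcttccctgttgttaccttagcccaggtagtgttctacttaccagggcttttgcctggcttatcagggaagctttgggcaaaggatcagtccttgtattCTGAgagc
Gm24494: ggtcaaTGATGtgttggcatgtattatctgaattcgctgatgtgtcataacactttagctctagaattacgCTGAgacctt

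Rpl4, a ribosomal protein gene, hosted 4 members, and these are shown because neighbours of like sequence differed widely in counts. They lie at chr9:64175048-64175115 (Gm23344), chr9:64175873-64175942 (Gm22571), chr9:64176661-64176759 (Gm23136) and chr9:64177123-64177193 (Gm22455), all on the plus strand. Gm22455 and Gm22571 were identical at 90.5% of 63 aligned bases, and Gm22455 and Gm23344 at 81.6% of 49. Their summed counts were 171 for Gm23344, 3 for Gm22571, 239 for Gm23136 and 136 for Gm22455. Gm22571, at the threshold, thus had few counts beside its relatives. Capitals mark TGATG and CTGA.
Gm23344: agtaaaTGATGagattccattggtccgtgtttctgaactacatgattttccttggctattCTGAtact
Gm22571: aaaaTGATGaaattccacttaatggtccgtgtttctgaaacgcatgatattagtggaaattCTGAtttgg
Gm23136: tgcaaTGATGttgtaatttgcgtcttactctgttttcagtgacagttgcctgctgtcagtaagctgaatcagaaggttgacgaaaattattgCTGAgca
Gm22455: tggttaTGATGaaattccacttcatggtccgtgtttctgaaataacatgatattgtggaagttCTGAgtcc

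Gm24119 (chr10:91118291-91118536, minus strand), in the gene of the mitochondrial phosphate carrier Slc25a3, had the most counts of the members with an ACA tail and was the longest member at 246 bases. Gm25788 (chr4:123291344-123291474, plus strand) and Gm22154 (chr4:123293152-123293282, plus strand) lie in Pabpc4, which encodes a cytoplasmic poly(A)-binding protein, and were identical at 97.7% of 130 aligned bases. They are shown as a pair of close copies whose summed counts differed, 86 for Gm25788 and 58 for Gm22154. Each was at 90% identity or more with 2 other members. How far reads were told apart between such copies was not tested. The ACA letters of the tail are in capitals.
Gm24119: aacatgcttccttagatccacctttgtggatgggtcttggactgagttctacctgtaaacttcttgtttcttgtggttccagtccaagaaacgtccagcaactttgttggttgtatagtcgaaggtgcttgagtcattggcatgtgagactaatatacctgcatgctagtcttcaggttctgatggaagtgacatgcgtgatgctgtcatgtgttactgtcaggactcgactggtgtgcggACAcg
Gm25788: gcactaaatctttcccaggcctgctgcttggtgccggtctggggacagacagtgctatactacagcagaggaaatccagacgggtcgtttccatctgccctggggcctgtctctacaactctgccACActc
Gm22154: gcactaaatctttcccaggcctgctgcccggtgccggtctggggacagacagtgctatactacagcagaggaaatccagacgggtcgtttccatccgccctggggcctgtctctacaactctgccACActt

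Some members cannot be told apart from another gene. By BLAST, 37 of the 79 matched another predicted snoRNA gene at 90% identity or more over at least 80% of their length. The whole sequence of another snoRNA gene was shared by 7. Gm22192 (chr2:32221970-32222054, plus strand) and Gm25632 (chr2:32225653-32225737, plus strand), both in Prrc2b, share every base and had the same count in every sample, 34 in all. The same held for Gm23711 and Gm24091, with 6 counts each. Such counts may repeat 1 set of reads, since the files list 0 reads with several alignments, and they are uncertain as measurements of either copy. Gm22579 and Gm24539 are also identical in sequence but had 12 and 10 counts, differing in isotype replicate 3 alone. Gm24463 (chr9:89075336-89075407, plus strand) has the whole sequence of the named gene Snord50a. The first sequence below is that of both Prrc2b members, the second that of Gm24463 and Snord50a, with TGATG and CTGA in capitals.
Gm22192: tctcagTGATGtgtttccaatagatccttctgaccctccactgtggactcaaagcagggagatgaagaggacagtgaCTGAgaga
Gm24463: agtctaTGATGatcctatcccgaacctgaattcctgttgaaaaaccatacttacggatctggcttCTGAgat

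The named relatives of the members were mostly without counts. In a BLAST search, 19 members matched a named snoRNA gene over at least 80% of their length at 80% identity or more, and these matches fell on 15 named genes. Of the 15, 10 had no count in any sample, while the 14 members that matched them had 667 counts. Of these counts 366 were on Gm24494, which was only 81.0% identical to Snord45c. Gm24463 had 2, 5 and 13 counts in the isotype samples and 27, 12 and 2 after anti-CD24, a total of 61, against 0 for the identical Snord50a. Gm24253, identical to Snord1c over 73 bases, had 16 counts against 0. Gm24949, with 95.8% identity to the U3 gene Rnu3b4, had 10 counts against 0.

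Position in the annotation was also compared for these named relatives. Of the 10 named relatives at 0, 8 are covered over at least 50% of their length by an exon of another gene on their strand, and 7 completely, Snord50a by an exon of Snhg5. In the union mode of the authors' counter, a read that touches exons of 2 genes is counted for neither. Over all named Snora and Snord genes, 53 of the 64 so covered (82.8%) had 0 counts, against 21 of the 76 others (27.6%). Complete coverage did not always go with a count of 0, as Snord16a, which lies wholly within an exon of Rpl4, had 215 counts, and 9 completely covered members had 473. The part of exon coverage in the counts of 0 was not tested, nor, for close copies, which copy gave rise to the reads.

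Most members lay inside another gene. On their own strand, 72 of the 79 had a host, 60 different genes in all, of which 58 are protein-coding. The 7 members without a host (115 counts) included 6 that matched a named snoRNA, Gm24463, Gm24253, Gm24949, Gm24613, Gm26440 and Gm22519, and Gm23123, which did not. Among the 72 with a host, 13 matched a named snoRNA. Ribosomal protein genes made up 7 of the hosts, among them Rpl4, Rpl17, Rpl7a, Rpl5, Rps12 and Rpsa. They held 13 members and 30.8% of the 4792 counts of all members. Taf1d, a subunit of an RNA polymerase I factor, hosted 4 members with 71 counts. Gm26287, with 143 counts, lies in Nop58, itself a core protein of box C/D particles.

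The members were far above the exons of their hosts. The 60 hosts together had 158 counts, with a median of 1 and none at all for 23 of them, against 4677 counts of the members inside them. Eif4a1 and Rabggtb had 0 counts in every sample while Gm25835 had 568 and Gm24494 366. Rpl4 had 18 counts against 549 for its 4 members. Gm22571 was the exception, with 3 counts below the 18 of Rpl4, and the other 71 members were above their host. These are raw counts over features of unequal length, and the snoRNAs are the shorter ones. Of the members, 14 overlap an exon of another gene on their strand, 9 of them completely with 473 counts, and reads on such overlaps can be lost to the count of ambiguous reads.

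**Figure D1:**
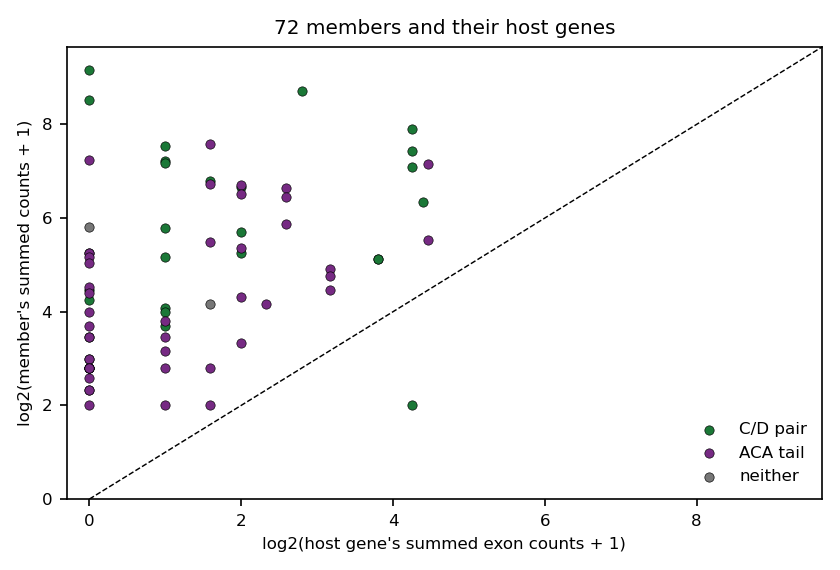
Each point is 1 of the 72 members with a host gene on its strand, with the host's summed exon counts over the 6 samples on the x axis and the member's on the y axis, both as log2 of the count plus 1; colour gives the box motif and the dashed line equality. All points but Gm22571 (3 counts against 18 of Rpl4) lie above the line.

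Counts were concentrated in few members. The 79 members had 4792 counts, a median of 21 each, and the 20 highest held 75.7% of them. At least 10 counts were reached by 57 members and at least 100 by 16. Members with a C/D pair held 65.2% of the counts, with a median of 37 each, and those with an ACA tail 32.7%, with a median of 17. Their lengths hardly overlapped, with a median of 76 bases (range 65 to 144) for the C/D pair and 133 bases (range 122 to 246) for the ACA tail. Per 100 bases of length, the summed counts were highest for Gm22980 (594), Gm24494 (452), Gm25835 (394), Gm25506 (266), Gm23344 (251) and Gm23136 (241), each with a C/D pair. Gm24119 had 77.2 counts per 100 bases.

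**Figure D2:**
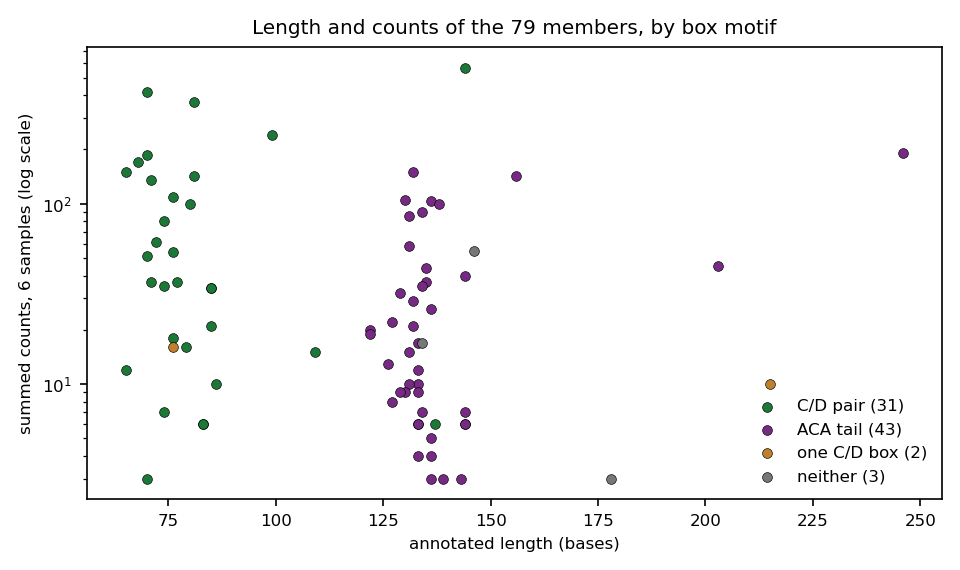
Each point is 1 of the 79 members, with its annotated length in bases on the x axis and its summed counts over the 6 samples on a log y axis; colour gives the box motif. Members with a C/D pair lie mostly under 100 bases (28 of 31) and no member with an ACA tail does (0 of 43), and the highest point is Gm25835 with 568 counts.

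The libraries differed in depth and in how much snoRNA they held. Each sample had between 166129 and 794185 gene counts, of which 15626 to 112042 lay outside the rRNA and ribozyme genes. At these depths 3 counts correspond to 0.00268% to 0.0192% of the non-rRNA counts. Anti-CD24 replicate 1 stood apart from the rest, with 21.0% of its non-rRNA counts on snoRNA genes against 1.66% to 5.92% in the other 5. It was also the only library with counts of erythroid markers, 99 in all on Hba-a1, Hba-a2, Hbb-bs and Hbb-bt, with Alas2 at 0. The other 5 libraries had 0 counts of these genes. B cell markers had 67 counts on 10 of 12 genes, from 0 to 24 per isotype sample and 7 to 15 per anti-CD24 sample, with isotype replicate 2 at 0. T cell markers were at 0 in all samples, and myeloid markers had 8 counts on 3 of 5 genes, Lyz2, Itgam and Csf1r, all in anti-CD24 samples. The part of the erythroid signal in the results below was not tested. The main comparisons of the conditions are given with and without anti-CD24 replicate 1.

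As a share of the non-rRNA counts, the members held 1.12%, 0.730% and 0.653% in the isotype samples. In the anti-CD24 samples they held 4.04%, 0.929% and 0.323%. The group means were 0.835% ± 0.252 and 1.76% ± 2.00 (SD, n = 3 each), isotype first. The anti-CD24 samples held both the highest and the lowest share, so the conditions overlapped, and their difference of 0.930 percentage points was smaller than the SD of the anti-CD24 samples. Between libraries of the same number, which the run names show were read on one run, the difference was 2.92, 0.200 and -0.330 points. Without anti-CD24 replicate 1 the difference of the means was -0.209 points. In bulk EV RNA, more vesicles that carry snoRNA and more snoRNA per vesicle cannot be told apart.

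Within the snoRNA class the members' share was close to even. They held 19.0% (95% Wilson interval 17.1% to 20.9%), 21.1% (17.9% to 24.8%) and 17.5% (16.1% to 19.0%) of the snoRNA counts in the isotype samples. In the anti-CD24 samples the values were 19.2% (18.6% to 19.9%), 16.8% (15.9% to 17.8%) and 19.4% (17.4% to 21.6%). These intervals cover counting error only. Isotype samples averaged 19.2% ± 1.83 and anti-CD24 samples 18.5% ± 1.45 (SD, n = 3 each), a difference of -0.696 points that was smaller than either SD. Leaving out anti-CD24 replicate 1, the anti-CD24 mean was 18.1% (n = 2) and the difference -1.06 points. Anti-CD24 replicate 1, highest by far among the non-rRNA counts, was in the middle of the range here.

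**Figure D3:**
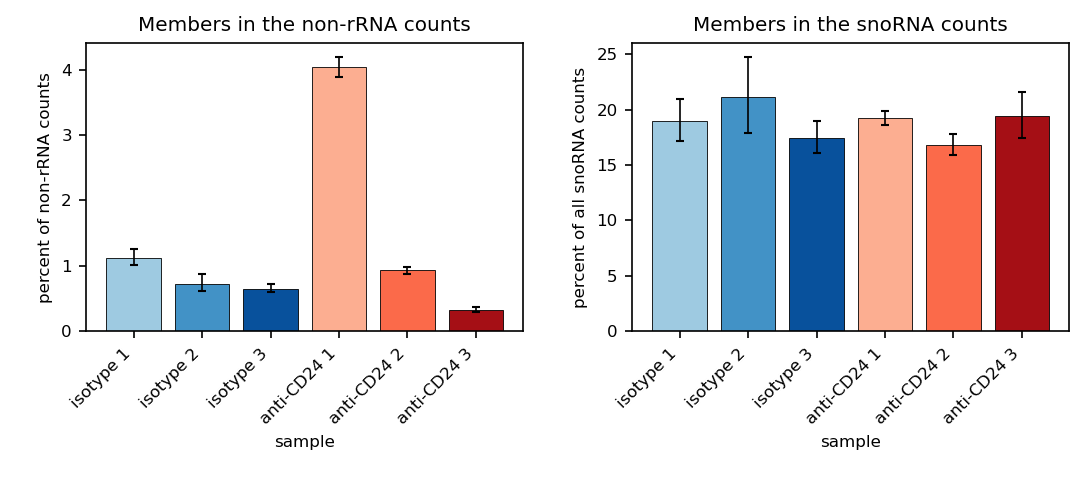
Bars give the members' summed counts in each of the 6 samples as a percent of the non-rRNA counts (left) and of all snoRNA counts (right), and error bars the 95% Wilson interval, which covers counting error only. On the left anti-CD24 replicate 1 stands at 4.04% and the others at 0.323% to 1.12%, and on the right all samples lie between 16.8% and 21.1%.

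The share of the box classes within the members varied between samples. Members with a C/D pair took 66.3%, 59.6% and 42.4% of the members' counts in the isotype samples and 64.8%, 75.8% and 67.7% after anti-CD24. The means were 56.1% ± 12.3 and 69.4% ± 5.69 (SD, n = 3 each). The ACA tail members took 32.7%, 36.8% and 54.0% against 33.2%, 22.4% and 29.7%. The conditions overlapped, since isotype replicate 1 lay above anti-CD24 replicate 1 for the C/D pair, and isotype replicate 3 was the sample farthest from the rest. With anti-CD24 replicate 1 left out, the anti-CD24 means were 71.7% for the C/D pair and 26.0% for the ACA tail (n = 2). Both remaining samples then lay outside the isotype range, a difference that was not tested. Among the named snoRNA counts the C/D share was 92.9% ± 3.25 in the isotype samples and 94.6% ± 1.18 after anti-CD24 (SD, n = 3 each).

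The number of members with a count was largest in anti-CD24 replicate 1. It was 55, 32 and 51 in the isotype samples and 77, 66 and 46 after anti-CD24. Thinned to the 166129 counts of the smallest library, the expected numbers were 44.3, 32 and 34.8 after isotype and 65.5, 48.3 and 26.2 after anti-CD24. Anti-CD24 replicate 3 then had the fewest and replicate 1 the most, so the conditions overlapped. A count in all 6 samples was found for 21 members, and 10 members had no count in any isotype sample.

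The levels of the main members were highest in the same library. Gm25835 had 158, 114 and 58.9 CPM (counts scaled to the gene counts of the library) in the isotype samples and 552, 106 and 47.8 CPM after anti-CD24. Gm22980 had 68.2, 90.3 and 41.9 CPM after isotype and 249, 228 and 34.0 CPM after anti-CD24. Gm24494 had 52.7, 54.2 and 13.1 CPM after isotype and 344, 153 and 8.81 CPM after anti-CD24. For all 3 the highest sample by CPM was anti-CD24 replicate 1 and the lowest anti-CD24 replicate 3, so the groups overlapped. CPM leaves out the TMM factors by which the fit below scaled the libraries further. These factors were 1.11, 1.35 and 0.873 for the isotype samples and 1.09, 1.37 and 0.512 for the anti-CD24 samples. Samples can order differently on that scale. Anti-CD24 replicate 1 had the highest CPM for 62 of the 79 members and for all 20 of those with the most counts. Members were taken, and the 20 ranked, by summed raw counts, of which this library gave 2612 of 4792. That choice favours members high in it, and the share over all genes is not given here. The same limit holds for such counts below.

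Of the 4 Rpl4 members, 3 had at least 100 counts. Gm23136, which is 88.9% identical to Snord16a of the same host, had 37.2, 18.1 and 5.24 CPM after isotype and 234, 89.6 and 13.9 CPM after anti-CD24. Gm23344 had 31.0, 12.0 and 7.86 CPM after isotype and 162, 58.4 and 13.9 CPM after anti-CD24. Gm22455 had 43.4, 12.0 and 2.62 CPM after isotype and 128, 50.2 and 3.78 CPM after anti-CD24. In each replicate number the anti-CD24 library was above the isotype library for these 3, although the groups overlapped. Gm22571, with 1, 0 and 0 counts after isotype and 2, 0 and 0 after anti-CD24, was too low to order.

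**Figure D4:**
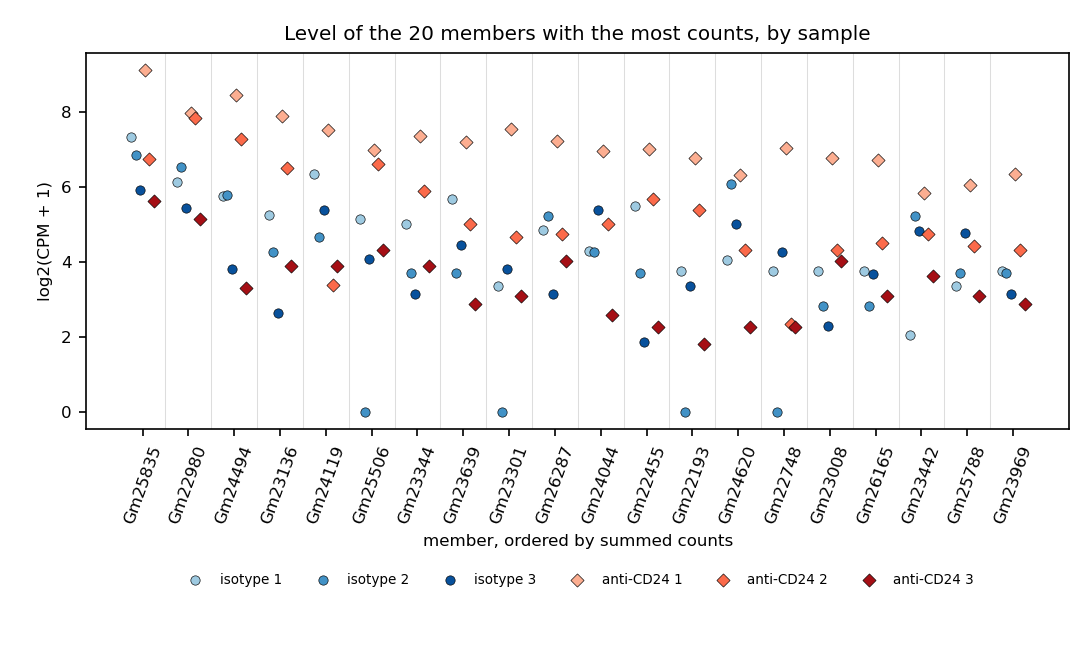
The y axis gives log2(CPM + 1) of the 20 members with the most counts, which are ordered along the x axis by summed counts, with isotype samples as blue circles and anti-CD24 samples as red diamonds. Anti-CD24 replicate 1 (palest diamond) is the highest sample for all 20, while anti-CD24 replicate 3 (darkest diamond) lies among or below the isotype samples for all but Gm23008.

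Several ACA tail members were high after anti-CD24 in that library alone. Gm24119 had 80.6, 24.1 and 40.6 CPM after isotype and 182, 9.51 and 13.9 CPM after anti-CD24. Gm24620, in an intron of the kinesin gene Kif13a, had 15.5, 66.2 and 31.4 CPM after isotype and 78.7, 19.0 and 3.78 CPM after anti-CD24. Its sequence was at 90% identity or more with 2 other members. Gm22748, in the ornithine decarboxylase gene Odc1, had 12.4, 0 and 18.3 CPM after isotype and 129, 4.07 and 3.78 CPM after anti-CD24. For these 3, anti-CD24 replicates 2 and 3 each lay below at least 2 of the isotype samples.

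Whether single members differed between the conditions was tested with edgeR's quasi-likelihood test on the 1501 genes that reached 1.0 CPM in at least 3 samples, with Benjamini-Hochberg adjustment over all of them. Of the 79 members, 67 entered the test and 12, with 3 to 18 counts, did not. None of the 67 had an adjusted p under 0.05 from edgeR, where 0.0666% of all genes tested did, and DESeq2 called 0 as well. The lowest adjusted p of a member from edgeR was 0.49. At an unadjusted p under 0.05, edgeR gave 13 members (19.4%), all higher after anti-CD24. Of all genes tested, 7.93% reached this level in either direction and 4.20% in that direction. Of the 56 named snoRNA genes tested, 20 reached it. Gm24539 and Gm23297, among the 13, had 0 counts in all isotype samples. They could enter only through the anti-CD24 samples, so their direction was fixed by the filter. DESeq2 gave 4 of the 67 members at this level, where 6.33% of all genes and 4 of 56 named snoRNA genes reached it. The replicate block in edgeR also gave 4 of 67, where 1.33% of all genes and 6 of 56 named snoRNA genes did. Without anti-CD24 replicate 1 the count in edgeR was 1 of 47 members, against 14.4% of all genes and 7 of 53 named snoRNA genes. It was 1 of 65 members against 5.19% without isotype replicate 2, 1 of 59 against 4.70% without isotype replicate 3, and 8 of 50 against 10.0% without anti-CD24 replicate 2. Without isotype replicate 1 it was 10 of 58 members against 56 of 1179 genes. Without anti-CD24 replicate 3 it was 17 of 63 members against 113 of 1285 genes.

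The log2 fold changes of the tested members ran from -1.46 to 4.46 with a median of 1.31, and 59 of 67 were above 0. Over all 1501 genes the median was -0.29, and 44.7% were above 0. For the 56 named snoRNA genes tested the median was 1.74 and 54 were above 0. Without anti-CD24 replicate 1 the members' median was 0.55 with 31 of 47 above 0, against a median of -0.10 over all genes. For the 53 named snoRNA genes tested in that fit the median was 1.09, and 45 were above 0. The filter still asked for 3 samples, so a member counted only after anti-CD24 could not enter, while one counted only after isotype could. The medians of 1.31 and 0.55 are thus over different sets of members. The library sizes were also set to the snoRNA totals, a scale chosen after seeing the data. The members are themselves 16.8% to 21.1% of these totals, so values near 0 are partly built into the scale. The members' median was then 0.05, and 36 of 67 were above 0. At an unadjusted p under 0.05 in edgeR there were 0 members, against 171 of 1501 genes tested in either direction. The median of all genes moved to -1.31 on that scale. These counts describe the members that passed the filter. A member counted in anti-CD24 samples only could pass it through those samples alone, which was so for 3 of the 67, and no test of the members as a group was made.

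The smallest p values belonged to Gm23301, Gm23136 and Gm25117. Gm23301, an Rpl17 member with 84.8% identity to Snord58b of the same host, had 9.31, 0 and 13.1 CPM after isotype and 184, 24.4 and 7.55 CPM after anti-CD24. Its log2 fold change was 2.91 (standard error 1.06, edgeR adjusted p = 0.49), and 1.18 without anti-CD24 replicate 1. Gm23136 had a log2 fold change of 2.54 (standard error 0.97, edgeR adjusted p = 0.49), and 1.92 without that library. Gm25117, in the histone chaperone gene Nap1l1, had 0, 0 and 2 counts after isotype and 37, 1 and 0 counts after anti-CD24. Its log2 fold change of 3.55 (standard error 1.42, edgeR adjusted p = 0.49) rested on that 1 library, without which it did not pass the filter.

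None of the members with the most counts passed the adjusted test, and their fold changes depended on anti-CD24 replicate 1 to different degrees. Gm25835 had a log2 fold change of 1.19 (standard error 0.81, edgeR adjusted p = 0.56), which was 0.10 without anti-CD24 replicate 1. Gm22980 had 1.39 (standard error 0.85, edgeR adjusted p = 0.55), and 1.47 without that library. Gm24494 had 2.13 (standard error 0.89, edgeR adjusted p = 0.52), and 1.56 without it. Gm25506, in the transportin gene Tnpo2, had 2.11 (standard error 0.98, edgeR adjusted p = 0.55), and 2.07 without it. For Gm24119 the value was 0.52 (standard error 0.90, edgeR adjusted p = 0.84) and turned to -1.39 without the library, and for Gm22748 it went from 1.85 to -1.10. Gm24620 had -0.07 (standard error 0.99, edgeR adjusted p = 0.97).

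Of the 21 members with a count in every sample, 19 had a positive log2 fold change and 4 an unadjusted p under 0.05 in edgeR, against 7.93% of all genes tested. Their median was 1.19, and without anti-CD24 replicate 1 it was 0.25, with 14 of 21 positive. In that fit 0 of the 21 had an unadjusted p under 0.05 in edgeR, against 14.4% of all genes tested. Anti-CD24 replicate 1 was the highest sample by CPM for 20 of them, and anti-CD24 replicate 3 the lowest for 12. By box class, the median was 1.63 over 29 tested members with a C/D pair and 1.08 over 35 with an ACA tail. Without anti-CD24 replicate 1, 20 of 22 C/D pair members were above 0 with a median of 1.13. Of the ACA tail members 10 of 23 were then above 0, with a median of -0.13. Both medians are over fewer members than those with all samples, since members with no isotype count could not enter. The difference between the box classes was not tested.

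**Figure D5:**
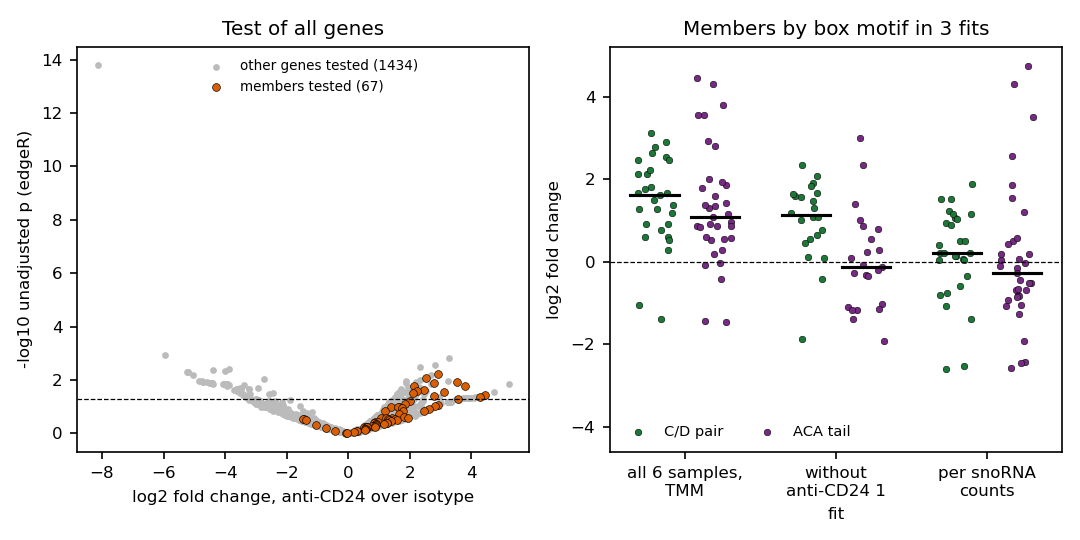
The left panel plots the log2 fold change (anti-CD24 over isotype) against -log10 of the unadjusted edgeR p for the genes tested, with the 67 members in orange and a dashed line at the unadjusted threshold, above which lie 13 members. The right panel gives the log2 fold change of each tested member by box motif in 3 fits, with a bar at the median. With all samples the median is 1.63 over 29 C/D pair members and 1.08 over 35 ACA tail members. Without anti-CD24 replicate 1 it is 1.13 over 22 and -0.13 over 23. Members with no isotype count could not enter that fit, so the sets differ.

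Complete separation of the samples was rare. In 5 of the 67 tested members (7.46%) every anti-CD24 sample had a higher CPM than every isotype sample, against 5.73% of all genes tested, and 1 member was separated the other way, against 6.53%. Gm23008, in the ribosome biogenesis gene Ppan, had 4, 1 and 3 counts after isotype and 66, 14 and 12 after anti-CD24, and its log2 fold change was 2.78 (standard error 1.12, edgeR adjusted p = 0.49), or 1.83 without anti-CD24 replicate 1. Gm24920, 98.8% identical to Gm22192, had 2, 0 and 2 counts against 6, 5 and 6. Gm22581, Gm23297 and Gm24539 had 0 counts in all isotype samples and 5, 8 and 10 counts in the anti-CD24 samples together. These 3 could enter the test only by being present in every anti-CD24 sample, so their separation follows from the filter. Gm22579, which has the sequence of Gm24539, had the same anti-CD24 counts and 2 counts in isotype replicate 3, so the separation cannot be assigned to Gm24539. The member lower after anti-CD24 throughout was Gm24455 in Taf1d, with 3, 2 and 5 counts against 3, 0 and 2. Without anti-CD24 replicate 1, 2 of 47 tested members, Gm23008 and Gm24920, lay above every isotype sample, against 9.47% of all genes. In that fit 3 members, Gm24455, Gm24119 and Gm23130, lay below, against 12.9%. Members with no isotype count could not enter it.

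The pairs of libraries that shared a number did not go one way. For members with unequal CPM, the anti-CD24 library was the higher in 72 and the lower in 5 in number 1, and the higher in 56 and the lower in 16 in number 2. In number 3 it was the higher in 18 and the lower in 44. The members were taken by summed counts, to which anti-CD24 replicate 1 gave the most, so the values in number 1 are not free of that choice. CPM leaves out the TMM factors, which in number 3 were 0.873 for the isotype library and 0.512 for the anti-CD24 library.

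Transcripts of the snoRNP machinery had few counts. The 4 box C/D core proteins had 13 counts in the 6 samples together, namely 1, 0 and 0 after isotype and 2, 5 and 5 after anti-CD24, with 5 of the counts on Fbl, the methyltransferase fibrillarin, 4 on Snu13, 3 on Nop56 and 1 on Nop58. Of the 4 box H/ACA core proteins, Dkc1, the pseudouridine synthase dyskerin, had 4 counts, Nhp2 had 1, and Gar1 and Nop10 had 0. Among 12 assembly and Cajal body factors, Nolc1 had 3 counts, Shq1 had 1 and the other 10 had 0. Of 19 noncoding host RNAs, 16 were in the files and 3 had a count, 18 counts in all, of which 15 were on Snhg14. Between 0 and 7 counts per sample fell on any of these lists. Every anti-CD24 sample had more counts of the box C/D proteins than every isotype sample, at 3.28 to 6.79 CPM against 0 to 3.10. The nearest values rest on 2 counts in anti-CD24 replicate 1 and 1 in isotype replicate 1. Of all single genes tested, 5.73% were separated in that direction by CPM. The groups overlapped for the other 3 lists, and the lists were not tested.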

How the data were processed

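RNA of EVs from 3 isotype and 3 anti-CD24 samples was compared, grouped by the labels. Reads were trimmed (FASTX), aligned (tmap) and counted on Ensembl exons of GRCm38 (p5 in the paper, GRCm38.p4 in the submitters' processing notes) by htseq-count (HTSeq 0.5.4p5, union mode, stranded), and the authors deposited raw counts for 47729 genes. Reads that match several copies may have been counted on each. The 5 summary lines per file were left out, and 419 genes, absent from GENCODE M21, carry no class.

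Members, lists and tests were chosen with earlier results of these data known. Genes were tested with edgeR 4.0.16 (R 4.3.3, quasi-likelihood, TMM, condition only, at least 1.0 CPM in 3 samples) and called at an adjusted p under 0.05. Standard errors are the absolute log2 fold change divided by the root of F. The fit was tested on simulated data with large changes in genes above a count floor. That test does not show how well the fit finds changes in members with few counts. Named members were the 20 with the most counts, the 3 with the smallest p, those counted in all 6 samples, copies, and those beside the threshold, with their hosts, best named relatives and pathway lists. Some hosts and markers are not reported here. Members separated between the groups or without a host were named after their values were seen. BLAST 2.17.0 searched the plus strand (word size 11, E value 0.001).

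Alternatives were DESeq2 1.42.0, library size without TMM, rRNA genes removed, other filters, a replicate block, other denominators, copies counted once and each sample left out. The filter stayed at 3 samples when 1 was left out, so a gene counted only in the reduced group could not enter. Scaling to the snoRNA counts, leaving samples out of the number of members detected, and the values without anti-CD24 replicate 1 for box class shares, the share of snoRNA counts, members counted in all 6 samples and separated members were added after seeing the data. Same-numbered samples shared a run by the run names. Over 1501 genes their log2(CPM + 1), as deviations from the group means, correlated at -0.0298, -0.0238 and -0.106, so the numbers were not taken to pair the samples.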

Additional observations from a re-analysis of the deposited data

How the results depend on the processing

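No member had an adjusted p under 0.05 in edgeR or DESeq2 under any alternative tried, with 0 to 17 members at an unadjusted p under 0.05. In edgeR it was 0 of 67 members on the snoRNA scale, against 171 of 1501 genes. It was 17 of 67 members with rRNA genes removed, against 156 of 1419 genes. Without anti-CD24 replicate 3 it was 17 of 63 members, against 113 of 1285 genes. The number of all genes called was 1, and it was 0 with DESeq2, 2 without a filter, 2 with at least 10 counts, and 0 to 47 when 1 sample was left out, with 47 without anti-CD24 replicate 1, 3 without anti-CD24 replicate 3, and 0 without isotype replicate 1 or anti-CD24 replicate 2. With the replicate block, 0 genes and 0 members were called, the members' median log2 fold change was 1.22 and the mean difference of their share within numbers was 0.930 points. No sample correlated best with the sample of its own number.

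The members' median log2 fold change, 1.31, stayed above 0 under every alternative, from 0.55 without anti-CD24 replicate 1 to 1.75 without isotype replicate 1 among the sets with 1 sample left out, and was 0.70 with DESeq2 and 0.05 on the snoRNA scale. DESeq2 moved the median of all genes from -0.29 to -0.97. The difference of the members' share of 0.930 points was -0.696 as a share of the snoRNA counts, and -0.209 to 1.65 when 1 sample was left out. The thinned libraries reduced the difference in members detected from 17 to 9.64. Without thinning, leaving out 1 sample gave 10 to 25.5, with 10 without anti-CD24 replicate 1 or isotype replicate 2. At the thinned depth anti-CD24 replicates 2 and 3 had 48.3 and 26.2 members, on either side of the isotype mean of 37.0.

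Of 335 alternative log2 fold changes of 26 named members, 35 changed sign, in 13 members, and none was called. On the snoRNA scale the values were -0.35 for Gm25835, -1.06 for Gm24119, -0.52 for Gm23639, -0.80 for Gm24044, -0.033 for Gm22748, -0.69 for Gm23442, -0.52 for Gm25788, -1.38 for Gm24463, -0.69 for Gm22154, -0.065 for Gm24336 and -1.08 for Gm23130. With the replicate block they were -0.23 for Gm24119, -0.11 for Gm24463 and -0.10 for Gm23130. DESeq2 gave -0.037 for Gm23442 and -0.29 for Gm24463, and the filter of 10 counts gave -0.059 for Gm24463. With rRNA genes removed Gm24620 was 0.34 and Gm24233 0.45, and without a filter 0.26 and 0.23. With 1 sample left out, Gm24119 ran from -1.39 to 1.00, Gm23639 from -0.13 to 1.73, Gm24044 from -0.27 to 1.55, Gm24620 from -1.17 to 0.46, Gm22748 from -1.10 to 2.57, Gm24463 from -0.42 to 0.84, Gm22154 from -0.078 to 1.61, Gm23130 from -1.87 to 1.53 and Gm24233 from -0.59 to 0.38. The cause of these changes was not tested. Depth limits single members, with a median of 21 counts over the 6 samples.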
